A study of Mus musculus with 6 samples.

Results

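The genes described here act below the small GTPases Cdc42 and Rac and build, cut or orient the actin cytoskeleton. They are 40 genes named in a list, each matched by its mouse symbol to 1 row of the 55450 genes in the count table. All 40 passed the low-count filter and stood among the 19549 genes tested. Expression had been measured by poly(A) RNA-seq in CD31-positive cells isolated from the brains of mice at postnatal day 7. The mutant group (Cdh5(PAC)-CreERT2; Rbpjflox/flox, 3 libraries) had both Rbpj alleles floxed, and the control group (Cdh5(PAC)-CreERT2; Rbpjflox/WT, 3 libraries) had 1 floxed and 1 wild-type allele. Both groups carried the tamoxifen-inducible Cre, driven by a transgenic Cdh5 (endothelial cadherin) promoter, and both were given tamoxifen, 100 µg each at P1 and P2. Both sexes were used, and the strain was mixed (FVB/N and C57BL/6). The labels speak of triplicate sequencing of pooled RNA, give different numbers of pooled animals in different places, and do not tie a library to a pool of its own. P-values below therefore rest on library-to-library spread, part or all of which may be technical. By its title the study is about impaired remodelling of brain vessels in arteriovenous malformation, with Cdc42 activity and apelin as its themes.

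Cdc42 and Rac, when bound to GTP, recruit effectors that change the shape and front-rear axis of a cell. N-WASP (Wasl) and the WAVE proteins (Wasf genes) switch on the Arp2/3 complex, which starts new actin branches, while profilin supplies actin monomers, Ena/VASP proteins lengthen filaments and cofilin severs them. The p21-activated kinases (Pak genes) act on LIM kinase, which phosphorylates and so restrains cofilin, and slingshot phosphatases remove that phosphate. Cdc42 also binds Par6 in the Par complex with Par3 and atypical protein kinase C, which sets cell polarity. In endothelial cells these proteins take part in migration, sprouting and lumen formation.

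Library totals ran from 75744913 to 81556241 estimated counts in mutant and from 78577192 to 82092461 in control libraries, where about 4 units of count stand for 1 read pair. Rbpj itself was at 46.65 ± 1.34 CPM (counts scaled to library size with TMM factors) in mutant and 54.1 ± 0.294 CPM in control libraries (SD, n = 3 each). Rbpj was called lower (log2 fold change -0.21 ± 0.042, adjusted p = 0.0129), and the labels do not name the floxed exons, so this count is a limited check of the labels. On the second principal component mutant library 3 stood apart, at -55.6 against 31.2 and 26.2 for mutant libraries 1 and 2. The 10 endothelial markers, among them Pecam1 and Cdh5, were all detected and summed to 11650 to 12620 CPM in mutant and 11420 to 11750 CPM in control libraries. They did not move together: Pecam1, Emcn and Tie1 were called higher, and Cdh5 (log2 fold change -0.15), Tek and Ly6c1 were called lower. Markers of other cells were present too. The 7 erythroid markers summed to 4665 to 4961 CPM in mutant and 6974 to 7179 CPM in control libraries, and the 4 choroid plexus markers to 3405 to 4427 CPM in mutant and 5034 to 5476 CPM in control libraries. Most of the choroid plexus sum was Ttr, at 3334 to 4341 CPM in mutant and 4941 to 5376 CPM in control libraries, and Ttr was not called. Fibroblast markers (530 to 702 CPM in mutant, 801.5 to 908 CPM in control libraries) and astrocyte markers (257 to 385 CPM in mutant, 474 to 528 CPM in control libraries) were also lower in sum without overlap. The part of these cells in the members' values was not tested. Of 10 pericyte and smooth muscle markers the sum was 3626 to 3747 CPM in mutant and 3460 to 3573 CPM in control libraries, and of 10 microglia and macrophage markers 1152 to 1203 CPM and 1464 to 1495 CPM in the same order. In such bulk samples, fewer cells of a type and less RNA per cell cannot be told apart.

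Mutant libraries had more transcript of profilin 1, of 4 Arp2/3 subunit genes, of cofilin 1, of Vasp and of the kinase genes Pak2, Limk2 and Rock2, and more of the cofilin phosphatase gene Ssh2. They had less transcript of the polarity genes Pard3 and Prkci and of the Ena/VASP gene Evl. In numbers, 11 of 40 members were higher and 3 lower at an adjusted p under 0.05 (edgeR quasi-likelihood test, adjusted by Benjamini-Hochberg over all 19549 genes), and 26 were not called. Over all genes tested 14.4% were called, 7.56% higher and 6.83% lower. The share called grew with abundance in these libraries, to 20.8% of the genes with a mean of at least 5 CPM (10.9% higher and 9.98% lower) and 36.0% of those with at least 100 CPM. Among the 17 members with at least 100 CPM, 11 were called, 10 of them higher, where 21.6% of all genes that abundant were higher. The median log2 fold change (mutant over control) of the 40 members was 0.06, against -0.01 over all genes tested.

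The changes were small. All 14 called members changed by less than 1.5-fold, and in all 14 the mutant and control libraries did not overlap. Non-overlap alone was common, with 34.1% of all genes tested and 17 of 40 members. Of the 14 called members, 9 (8 higher and 1 lower) were called under each of 14 alternative settings. The calls of Arpc3, Arpc4, Rock2, Pard3 and Prkci were each lost under at least 1 setting, and the left-out libraries that end a call are named with each gene.

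**Figure D1:**
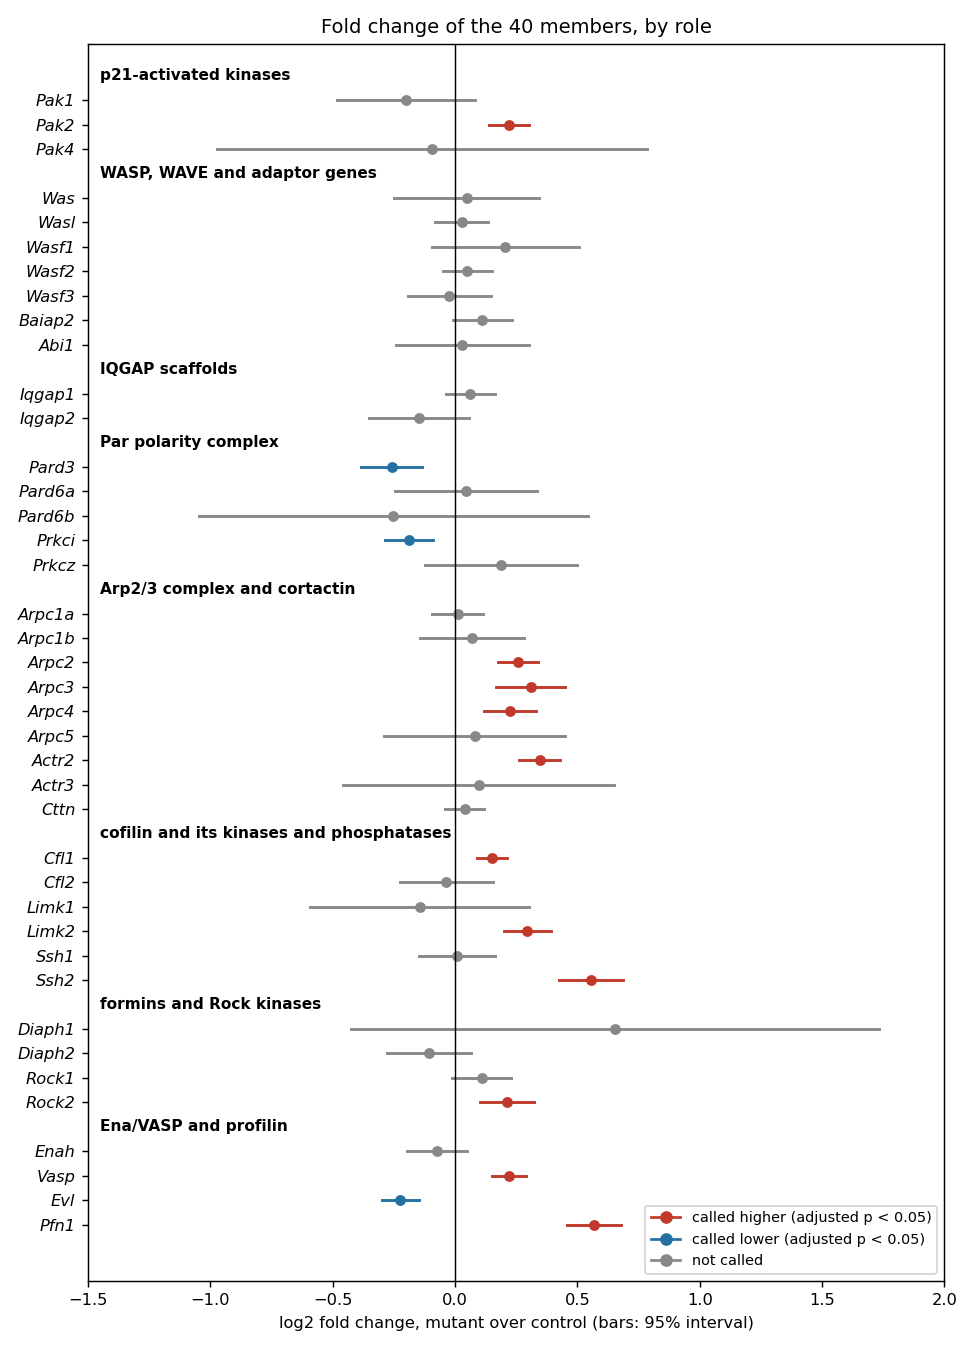
Log2 fold change (mutant over control, horizontal axis) of each of the 40 members, in blocks by role, with points for the estimate and bars for its 95% interval. Red marks the 11 members called higher, blue the 3 called lower and grey the 26 not called, and the widest bars belong to Diaph1, Pak4 and Pard6b.

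Promoters of 4 called members are printed to let the sequence upstream of genes that moved together, or apart, be read beside their values. Pfn1 and Arpc4 had higher transcript in mutant libraries, and the Ena/VASP paralogs Vasp and Evl moved in opposite directions. Each is a RefSeq window (GRCm38.p6) from 250 bases before to 50 bases after the gene's start, 5′ to 3′ on the gene's strand. Capitals mark matches, on either strand, to the TEAD motif GGAATG or to the CArG box bound by SRF, a factor that controls many actin genes. The windows lie at chr11:70654601-70654900 (minus strand) for Pfn1, chr6:113377863-113378162 (plus strand) for Arpc4, chr7:19271805-19272104 (minus strand) for Vasp and chr12:108554470-108554769 (plus strand) for Evl.
Pfn1: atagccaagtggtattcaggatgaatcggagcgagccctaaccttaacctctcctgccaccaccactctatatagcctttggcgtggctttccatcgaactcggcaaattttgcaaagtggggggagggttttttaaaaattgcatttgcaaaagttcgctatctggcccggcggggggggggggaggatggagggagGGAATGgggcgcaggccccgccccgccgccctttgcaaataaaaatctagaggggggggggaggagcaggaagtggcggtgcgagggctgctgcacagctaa
Arpc4: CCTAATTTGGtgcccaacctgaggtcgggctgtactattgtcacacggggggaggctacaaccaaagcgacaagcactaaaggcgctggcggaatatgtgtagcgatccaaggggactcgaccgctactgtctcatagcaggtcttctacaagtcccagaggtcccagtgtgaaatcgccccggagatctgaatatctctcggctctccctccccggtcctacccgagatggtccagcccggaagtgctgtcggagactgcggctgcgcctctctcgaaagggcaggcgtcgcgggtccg
Vasp: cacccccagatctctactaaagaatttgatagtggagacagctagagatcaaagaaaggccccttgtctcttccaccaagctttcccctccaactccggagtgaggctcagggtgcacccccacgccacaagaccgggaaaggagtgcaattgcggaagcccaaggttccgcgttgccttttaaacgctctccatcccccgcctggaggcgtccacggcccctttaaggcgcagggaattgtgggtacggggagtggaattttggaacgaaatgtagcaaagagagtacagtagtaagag
Evl: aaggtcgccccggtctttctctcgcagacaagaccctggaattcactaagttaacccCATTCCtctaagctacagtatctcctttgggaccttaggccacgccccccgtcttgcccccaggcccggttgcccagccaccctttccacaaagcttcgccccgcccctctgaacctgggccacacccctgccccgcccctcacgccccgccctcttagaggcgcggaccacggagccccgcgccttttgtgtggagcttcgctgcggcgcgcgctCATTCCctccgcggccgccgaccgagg

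A RefSeq window was found for 36 of 40 members, 47 windows in all, and 13 of the 36 were called members. The RBPJ motif GTGGGAA, on either strand, was in 0 of the 47 windows and in 6.38% of all 32851 windows of the same length. A CArG box was in 1 member window, that of Arpc4, and in 1.63% of all windows. GGAATG was in 6 member windows, those of Arpc2, Pfn1, Prkci, Wasf1 and 2 of Evl, which is 12.8% of member windows against 14.7% of all. None of these motifs overlapped another in the printed windows. Member windows were richer in G and C, with a median of 63.3% against 52.7% over all windows. A match is a description of letters, not of a bound site, and a window without one says nothing of the factor.

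Of the effectors that bind Cdc42 or Rac directly, the kinase gene Pak2 was called. Pak2 had 244, 240 and 254 CPM in mutant libraries and 211, 214 and 208 CPM in control libraries. Each mutant library lay above each control library, a 1.165-fold rise (log2 fold change 0.22 ± 0.035 SE, adjusted p = 0.0054). Per kilobase of exon Pak2 was the most abundant of the 3 Pak genes. The other 2 were not called. Pak1 had 8.11 ± 1.21 CPM in mutant and 9.31 ± 0.124 CPM in control libraries, and its 95% interval ran from -0.48 to 0.08 on the log2 scale. Pak4 was uneven within both groups, at 52.1, 28.7 and 50.7 CPM in mutant and 63.0, 41.0 and 36.4 CPM in control libraries, so a log2 difference from -0.97 to 0.79 is allowed. Cdc42, which activates these kinases, had 833 ± 20.99 CPM in mutant and 766 ± 17.3 CPM in control libraries (log2 fold change 0.12 ± 0.033, adjusted p = 0.0512).

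No member of the WASP and WAVE group was called. By the edgeR test 0 of the 7 also had an unadjusted p under 0.05, and 0 were called by DESeq2, limma-voom or any other alternative. These genes encode the nucleation-promoting factors that pass the signal to Arp2/3 (Was, Wasl, Wasf1 to Wasf3) and 2 adaptors, Abi1 of the WAVE complex and Baiap2, which links Rac and Cdc42 to WAVE and curves membranes. Wasf2, the most abundant of them per kilobase, had 306, 306 and 331 CPM in mutant and 300, 314 and 298 CPM in control libraries. The groups overlapped, and the 95% interval of the log2 difference ran from -0.05 to 0.15. For Wasl the interval ran from -0.08 to 0.14. In Baiap2 the mutant libraries, at 102, 100.1 and 104 CPM, lay above the control libraries, at 98.1, 97.4 and 87.45 CPM, but the adjusted p was 0.216. Wasf1 (6.55 to 7.04 CPM in mutant, 4.91 to 6.49 CPM in control libraries) and Wasf3 (17.1 to 18.55 CPM in mutant, 17.1 to 19.0 CPM in control libraries) were low. Was, the blood-cell paralog of N-WASP, had 6.36 ± 0.743 CPM in mutant and 6.15 ± 0.552 CPM in control libraries, while 6 of 10 microglia and macrophage markers were lower in mutant libraries, and their part in this level was not tested. Abi1 had 107 to 114 CPM in mutant and 90.7 to 121 CPM in control libraries and was not called.

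IQGAP scaffolds bind active Cdc42 and Rac and tie actin to microtubules. Iqgap1 had 459, 440.0 and 488 CPM in mutant and 439, 453 and 435.5 CPM in control libraries. The groups overlapped (log2 fold change 0.06 ± 0.044, adjusted p = 0.423). Per kilobase of exon Iqgap2 was far lower than Iqgap1, at 2.71 and 3.00 against 27.96 and 26.8 CPM per kb in mutant and control libraries. In CPM, Iqgap2 was at 14.5 to 17.35 CPM in mutant and 16.5 to 18.2 CPM in control libraries, with an interval of the log2 difference from -0.35 to 0.06.

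The Arp2/3 complex has 2 actin-related proteins, encoded by Actr2 and Actr3, and 5 further subunits, one of which exists in the forms Arpc1a and Arpc1b. Actr2, Arpc2, Arpc3 and Arpc4 were called higher and the other 4 genes were not called. All 8 estimates were above 0, with a median log2 fold change of 0.16, and so were 9475 of the 19549 genes tested. The estimates of the 4 genes not called each turned below 0 under at least 1 alternative setting. Arpc2 and Arpc4 code for subunits of the complex's core and Arpc3 for a smaller peripheral one. Actr2 had 318, 318 and 337 CPM in mutant and 257, 259 and 250.0 CPM in control libraries. Every mutant library was above every control library (1.27-fold, log2 fold change 0.35 ± 0.036, adjusted p = 0.000717). Arpc2 stood at 352, 363 and 359 CPM in mutant and at 297, 291 and 310 CPM in control libraries (log2 fold change 0.26 ± 0.035, adjusted p = 0.00245). Per kilobase of annotated exon Arpc2 had the highest level of the complex, 176 ± 2.63 CPM per kb in mutant and 147 ± 4.70 CPM per kb in control libraries. That rank depends on the length used. Annotated exons span 2033 bases in Arpc2 and 2762 in Arpc3, but the longest coding transcripts span 1439 and 899 bases. In CPM Arpc3 was above Arpc2, at 384 against 358 in mutant and 310 against 299 in control libraries.

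Arpc3 had 386, 381 and 385 CPM in mutant and 294, 294 and 342 CPM in control libraries. Control library 3 lay nearest to the mutant libraries, and the groups did not overlap (log2 fold change 0.31 ± 0.060, adjusted p = 0.0132). The adjusted p of Arpc3 was 0.0592 without mutant library 3, 0.05095 without control library 1 and 0.0506 without control library 2. Arpc4 had 140, 153 and 139 CPM in mutant and 122.5, 123.1 and 125 CPM in control libraries (log2 fold change 0.22 ± 0.045, adjusted p = 0.0151). Leaving out control library 1 gave 0.0570 and leaving out control library 2 gave 0.0519. Exons of Arpc4 share 283 bases with those of Ttll3 on the same strand, which had 2181 counts over the 6 libraries against 63754 for Arpc4.

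Actr3 was uneven within both groups, and Arpc5 within the control group. Actr3 had 305, 423 and 308 CPM in mutant and 366, 250.4 and 352 CPM in control libraries. Mutant library 2 was the highest and control library 2 the lowest of the 6, and the 95% interval of the log2 difference, from -0.46 to 0.65, holds the rises of the 4 called subunits. Of the 75-base stretches of the Actr3 transcript, 34.3% also occur in transcripts of 2 other genes, foremost the processed pseudogene Gm8822, so its count is uncertain. These 2 genes had 11796 counts against 159032 for Actr3. Arpc5 had 89.8, 85.25 and 89.1 CPM in mutant and 103, 76.8 and 70.25 CPM in control libraries. Control library 1 was the highest of all 6. Without it Arpc5 was called higher (log2 fold change 0.27, adjusted p = 0.0361, where 9.44% of all genes were called), against an adjusted p of 0.803 with all libraries. Arpc1a (89.5 to 97.4 CPM in mutant, 89.5 to 94.2 CPM in control libraries) and Arpc1b (220 to 257 and 200.5 to 244 CPM) overlapped between groups, with intervals of the log2 difference from -0.09 to 0.12 and from -0.14 to 0.28. The 2 genes lie side by side on chromosome 5 with 5453 bases between them (GRCm38). Exons of Arpc1b share 931 bases with Pdap1 on the opposite strand, which had 45796 counts against 109738 for Arpc1b. The sources used here do not say if reads were assigned by strand, so the count of Arpc1b, and its share of the Arpc1 pair, is uncertain. Cttn, which encodes cortactin, a protein that stabilises Arp2/3 branches, had 169 ± 2.75 CPM in mutant and 164 ± 4.09 CPM in control libraries, and its interval ran from -0.04 to 0.12.

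**Figure D2:**
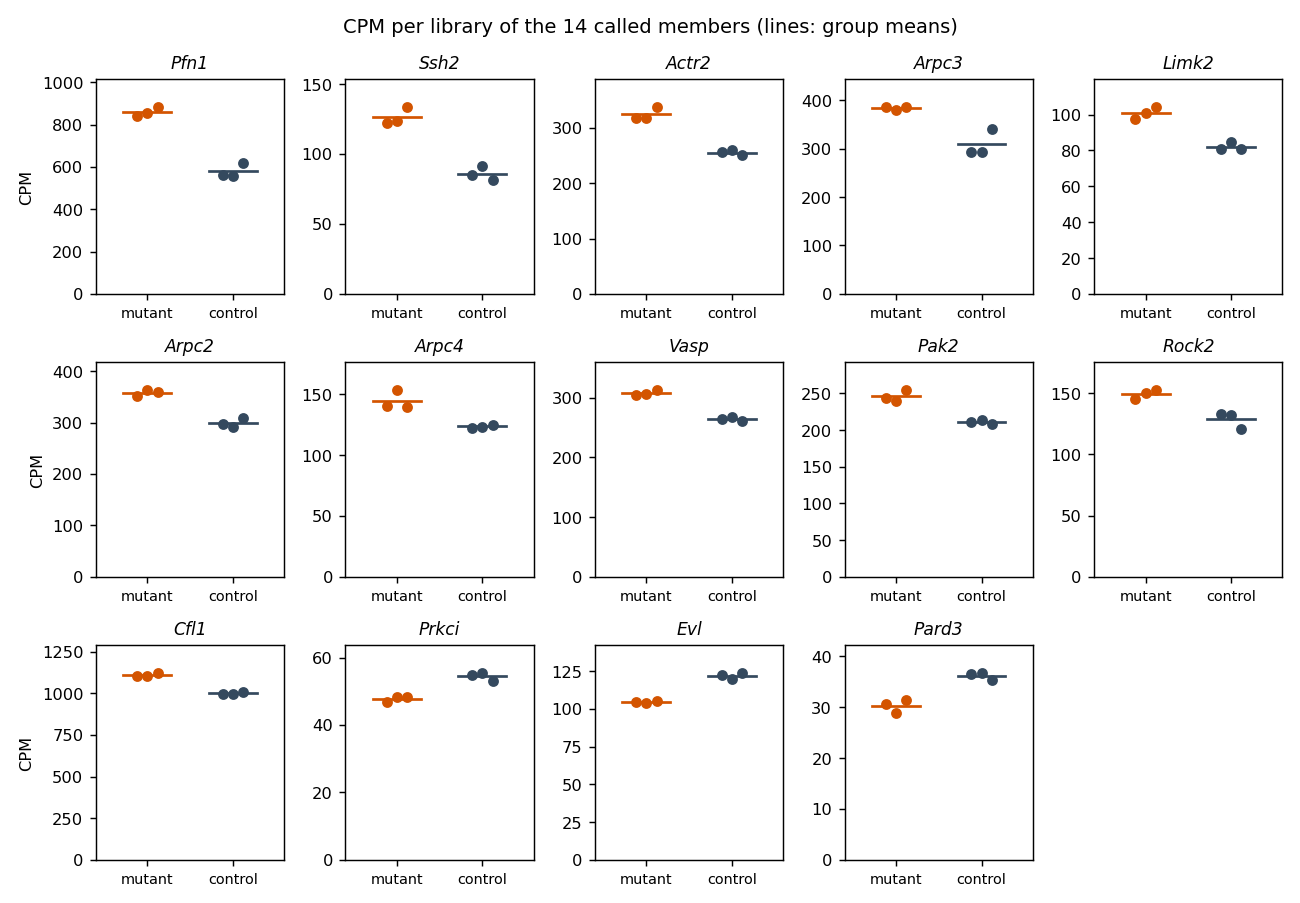
CPM (vertical axes, from 0) of the 14 called members in the 3 mutant (orange, left) and 3 control libraries (dark, right) of each panel, with lines at the group means. The 11 members that were higher come first, from Pfn1 at 839 to 882 CPM in mutant and 557 to 617.5 CPM in control libraries down to Cfl1, and Prkci, Evl and Pard3 were lower.

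**Figure D3:**
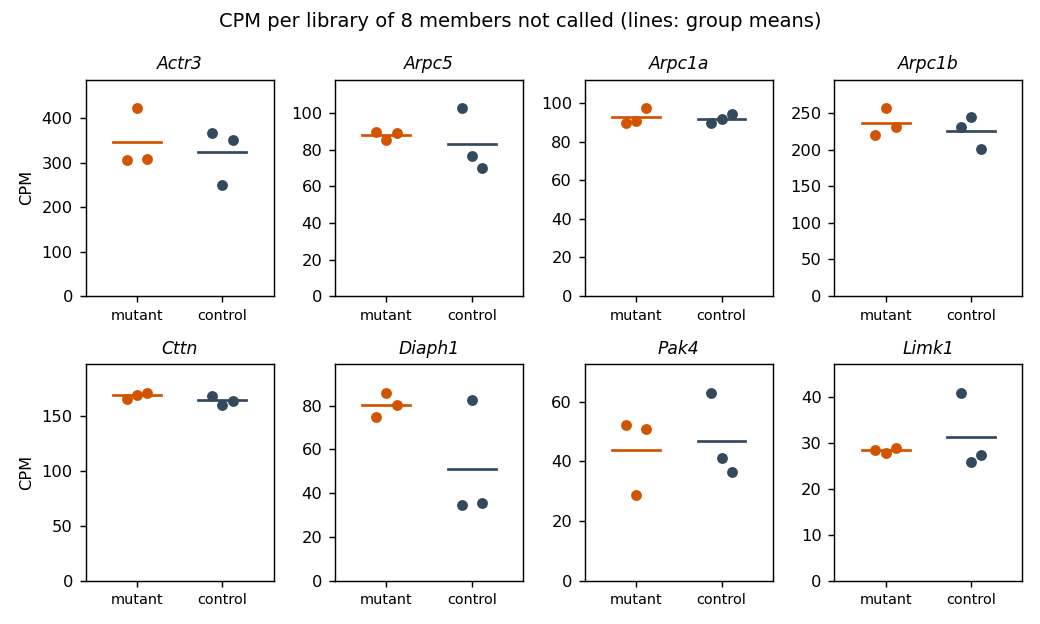
CPM (vertical axes, from 0) of 8 members that were not called, in mutant (orange, left) and control libraries (dark, right), with lines at the group means. Single libraries stand off in Actr3 (mutant 2 and control 2), Arpc5 and Limk1 (control 1), Pak4 (mutant 2 and control 1) and Diaph1 (control 2).

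Cofilin and the enzymes that act on its phosphorylation rose in part. Cfl1, which encodes the main non-muscle cofilin, was the member with the highest CPM, at 1106, 1101 and 1121 CPM in mutant and 994, 998 and 1007 CPM in control libraries. The rise was 1.11-fold and the smallest among the called members (log2 fold change 0.15 ± 0.027, adjusted p = 0.00857). Exons of Cfl1 overlap Snx32 on the opposite strand, which had 1402 counts against 502339 for Cfl1. The muscle-type cofilin gene Cfl2 was at 33.1 ± 3.30 CPM in mutant and 33.9 ± 1.74 CPM in control libraries and was not called.

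The kinase gene Limk2 and the phosphatase gene Ssh2, whose products act on cofilin in opposite directions, were both higher. Limk2 had 97.3, 101 and 104 CPM in mutant and 80.8, 84.9 and 80.7 CPM in control libraries (1.23-fold, log2 fold change 0.30 ± 0.042, adjusted p = 0.00301). Ssh2 had 122, 123.3 and 133 CPM in mutant and 84.9, 91.7 and 81.4 CPM in control libraries. Ssh2 rose 1.47-fold with no overlap of groups (log2 fold change 0.56 ± 0.057, adjusted p = 0.000621). Their paralogs were not called. Ssh1 had 49.2 ± 0.857 CPM in mutant and 48.9 ± 4.24 CPM in control libraries. Limk1 had 28.6, 27.8 and 29.0 CPM in mutant and 41.0, 25.9 and 27.3 CPM in control libraries, with control library 1 above the other 5.

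Profilin 1 and Ssh2 had nearly equal rises, and their order turned with some libraries left out. Pfn1, whose protein binds actin monomers and feeds them to formins and Ena/VASP proteins, had 839, 854 and 882 CPM in mutant and 562, 557 and 617.5 CPM in control libraries. Every mutant library exceeded every control library (1.48-fold, log2 fold change 0.57 ± 0.047, 95% interval 0.46 to 0.68, adjusted p = 0.000218). Under the 14 alternatives its log2 fold change stayed between 0.55 and 0.62.

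The Ena/VASP genes, whose proteins extend filaments at the leading edge, split. Vasp had 305, 306 and 313 CPM in mutant and 264.5, 268 and 261 CPM in control libraries (log2 fold change 0.22 ± 0.030, adjusted p = 0.00249). Evl had 104.5, 104 and 105 CPM in mutant and 122.6, 119.9 and 124 CPM in control libraries. It fell by 0.22 on the log2 scale (SE 0.032, adjusted p = 0.0034), with every mutant library below every control library. Evl shares 278 exon bases with Degs2 on the opposite strand, which had 2085 counts against 54086. Enah, the third of the family, had 63.5 ± 0.640 CPM in mutant and 66.8 ± 4.45 CPM in control libraries and was not called. Within a group, the highest library of Vasp or Evl was at most 1.03 times the lowest.

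Of the 2 formin and 2 Rock kinase genes, Rock2 was called. Rock2, a kinase that raises myosin contractility and also acts on LIM kinase, had 145, 150.4 and 152.5 CPM in mutant and 133, 132 and 121 CPM in control libraries (log2 fold change 0.21 ± 0.047, adjusted p = 0.0227). Its adjusted p was 0.0693 without mutant library 2 and 0.0553 without mutant library 3. Rock1 had 75.25 ± 3.93 CPM in mutant and 69.7 ± 2.73 CPM in control libraries, with an interval of the log2 difference from -0.01 to 0.23.

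Diaph1, the formin mDia1, which extends unbranched filaments, had the widest spread. Its values were 74.55, 85.9 and 80.4 CPM in mutant and 34.7, 82.7 and 35.7 CPM in control libraries. Control library 2 lay among the mutant libraries and the other 2 control libraries were far below it. With all 6 libraries Diaph1 was not called (log2 fold change 0.65 ± 0.406, adjusted p = 0.404), and without control library 2 it was called higher (1.196 ± 0.071, adjusted p = 0.000344, where 9.87% of all genes were called). Diaph2 had 17.8 ± 0.550 CPM in mutant and 19.15 ± 1.32 CPM in control libraries. Among the 38 members with a mean of at least 5 CPM, 3 had a spread of 1.5-fold or more within a group, namely Diaph1, Pak4 and Limk1, against 11.3% of all genes that abundant.

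In the Par complex the scaffold and the kinase were lower. Pard3, which encodes Par3, had 30.7, 28.8 and 31.3 CPM in mutant and 36.6, 36.7 and 35.3 CPM in control libraries. It fell by 0.26 on the log2 scale (SE 0.053, adjusted p = 0.0169), with no overlap of groups. Prkci, which encodes atypical protein kinase C iota, had 46.7, 48.3 and 48.2 CPM in mutant and 54.9, 55.4 and 53.0 CPM in control libraries. It fell by 0.19 (SE 0.042, adjusted p = 0.0221). Both calls were fragile. The adjusted p of Pard3 was 0.0713 without mutant library 2, 0.0734 without control library 1 and 0.0722 without control library 2. That of Prkci lay between 0.0503 and 0.0928 without any 1 of mutant libraries 1, 2 and 3 and control libraries 1 and 2.

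The other members of the Par complex were at low levels and were not called. Pard6a had 6.01 to 7.32 CPM in mutant and 5.85 to 7.22 CPM in control libraries. Pard6b, the other Par6 gene among the members, had 0.991 to 1.80 CPM in mutant and 1.19 to 2.46 CPM in control libraries, which allows a log2 difference from -1.05 to 0.54. A Par6 gene outside the members, Pard6g, was far higher, at 60.3 ± 0.170 CPM in mutant and 59.3 ± 1.05 CPM in control libraries. Pard6g was not called, and its interval of the log2 difference ran from -0.06 to 0.11. The zeta kinase gene Prkcz had 2.95 to 3.16 CPM in mutant and 2.47 to 2.91 CPM in control libraries. The libraries of Prkcz did not overlap, but the adjusted p was 0.435, and 13.99% of its 75-base stretches also occur in the pseudogene Prkcz2. The 8 neuron markers, cells in which Prkcz and Wasf1 are prominent, summed to 172 to 202 CPM in mutant and 172 to 188 CPM in control libraries, and their part in these levels was not tested.

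Within families, 5 of the 11 shares examined did not overlap between groups and 6 did. These 5 are shares of Ssh2, Limk2, Vasp, Evl and Prkci, all called in the same libraries, so they restate those calls. Vasp and Evl are shares of the same sum and so are not separate results. No such shares were computed for other gene families, so the count has no background. Shares are of CPM per kilobase of annotated exon, given as description with no test. Ssh2 made up 55.2 ± 0.818% of the Ssh1 and Ssh2 sum in mutant and 45.8 ± 1.90% in control libraries, so that it was the larger part in mutant libraries and the smaller in control libraries. That order depends on the length used, since unscaled CPM gave 72.0% and 63.8%. Vasp made up 75.3 ± 0.157% of the Ena/VASP sum in mutant and 69.4 ± 0.580% in control libraries. Evl made up 22.8 ± 0.152% and 28.5 ± 0.572% in the same order. In both cases the libraries of the groups did not overlap. Limk2 made up 80.6 ± 0.546% of the LIM kinase sum in mutant and 75.6 ± 5.07% in control libraries, where control library 1 alone was at 69.8%. Cfl1 held 97.5 ± 0.255% of cofilin in mutant and 97.1 ± 0.148% in control libraries, Wasf2 89.6 ± 0.701% and 89.7 ± 0.674% of the WAVE genes, and Arpc1b 56.1 ± 2.28% and 55.0 ± 2.97% of the Arpc1 pair. Iqgap1 (91.1 ± 1.17% and 89.9 ± 0.269%) and Prkci (94.65 ± 0.235% and 95.8 ± 0.245%) held most of their pairs, and Rock2 held 72.1 ± 0.929% and 70.6 ± 1.31% of its own. Pak2 held 71.7 ± 4.68% of the 3 Pak genes in mutant and 66.9 ± 5.51% in control libraries, with the groups overlapping.

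**Figure D4:**
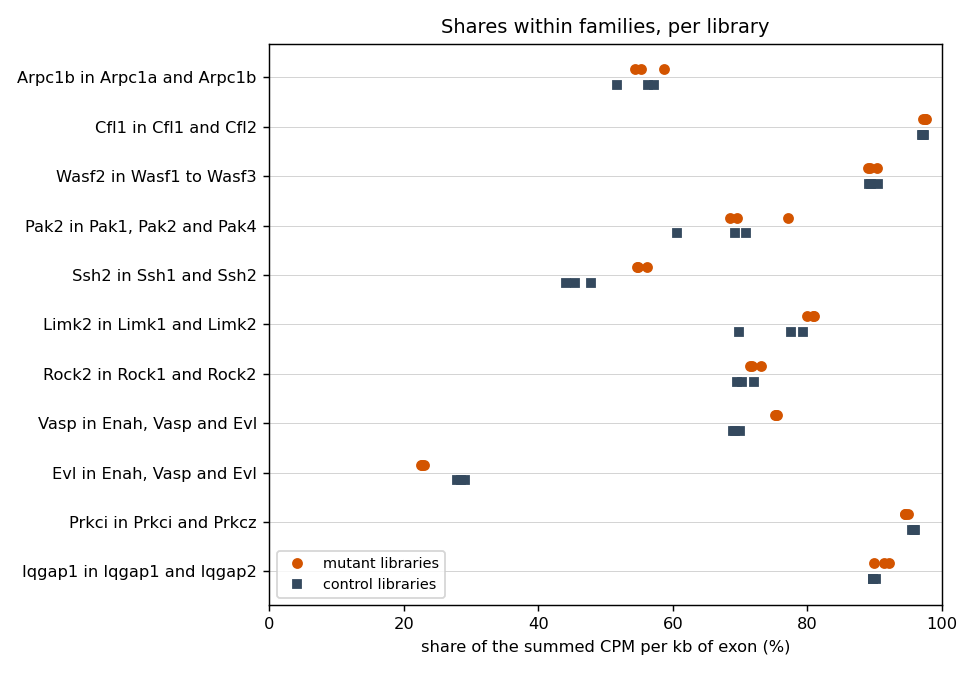
Share of 1 gene in the summed CPM per kilobase of exon of its family (horizontal axis, percent) in each mutant library (orange circles, upper row of each pair) and control library (dark squares, lower row). The libraries of the groups do not overlap for Ssh2, Limk2, Vasp, Evl and Prkci, and they overlap for the other 6 shares.

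Beyond the members, 142 other genes of actin and polarity control were tested in 9 lists, of which 8 are described. Of the 142 genes 27 were higher and 19 lower, 32.4% called, with a median log2 fold change of 0.03. The share called was 14.4% over all genes tested and 20.8% over those with a mean of at least 5 CPM. That level was reached by 121 of the 142. Of the members 35.0% were called and 27.5% were higher, and neither share was tested against the other.

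Of 11 other Arp2/3 subunits and regulators 5 were called, all of them higher. Over all genes tested 7.56% were higher, and 10.9% of those with a mean of at least 5 CPM. The median log2 fold change of the 11 was 0.15. All 5 are regulators, and the subunit genes of the list, Arpc5l and Actr3b, were not called. Among the 5, Coro1b and Coro2b were each called under 8 of 14 alternatives. Gmfg, a factor that takes Arp2/3 branches apart, had 58.4 ± 0.511 CPM in mutant and 28.95 ± 1.99 CPM in control libraries (log2 fold change 1.01 ± 0.058, adjusted p = 4.93e-05). Coro1c, a coronin, had 499 ± 19.2 and 319 ± 5.34 CPM (0.64 ± 0.037, adjusted p = 5.02e-05). Of 17 other WASP, WAVE and WIP genes 1 was higher, Hcls1, the blood-cell relative of cortactin, with 34.8 ± 1.33 CPM in mutant and 22.9 ± 0.822 CPM in control libraries. Nckap1l, the blood-cell WAVE subunit, was 1 of 2 that were lower (log2 fold change -0.30, adjusted p = 0.0176). Of this list 17.65% was called, against 14.4% of all genes tested and 20.8% of those with a mean of at least 5 CPM. That level was reached by 16 of the 17. Microglia and macrophage markers, of which 6 of 10 were lower, with a median log2 fold change of -0.33, moved with Nckap1l and against Hcls1. The 8 lymphocyte markers summed to 12.88 to 15.51 CPM in mutant and 9.501 to 11.99 CPM in control libraries. Their median log2 fold change was 0.6039, in the direction of Hcls1, and 0 of the 8 were called. The part of these cells in either gene was not tested. Nckap1l was called under 10 of 14 alternatives.

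Of 27 genes for actin monomers, capping and bundling, 8 passed the test upward and 1 downward (median log2 fold change 0.12). That is 33.3% called at a median level of 223 CPM, where 36.0% of all genes with at least 100 CPM were called. Actb, beta-actin, had 2875 ± 70.7 CPM in mutant and 2309 ± 74.8 CPM in control libraries (log2 fold change 0.32 ± 0.035, adjusted p = 0.000922). Fscn1, which bundles filaments in filopodia, had 1030 ± 28.9 and 564 ± 25.6 CPM (0.87 ± 0.042, adjusted p = 2.26e-05), and the monomer-binding gene Tmsb10 2457 ± 65.6 and 1721 ± 54.75 CPM. Gamma-actin, Actg1, was not called, at 2242 ± 36.0 CPM in mutant and 2053 ± 193 CPM in control libraries.

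The contractile side moved in both directions. Of 12 genes of myosin II and its regulators 3 were higher and 2 lower, 41.7% called at a median level of 212 CPM. Over all genes with at least 100 CPM 36.0% were called, 21.6% higher and 14.4% lower. Myh9, the non-muscle myosin heavy chain, had 1217 ± 55.6 CPM in mutant and 949 ± 41.7 CPM in control libraries (log2 fold change 0.36 ± 0.046, adjusted p = 0.00204), while the smooth muscle light chain gene Myl9 had 113 ± 2.32 and 188 ± 5.43 CPM (-0.73 ± 0.037, adjusted p = 2.6e-05). The list of SRF target genes also holds Srf itself and its cofactor genes Mrtfa and Mrtfb. Of its 18 genes, with a median level of 148 CPM, 2 were higher and 7 lower, which is 11.1% and 38.9%. Tagln (log2 fold change -1.17, adjusted p = 6.92e-05) and Acta2 (-1.32, adjusted p = 0.000242) were lower, and both are smooth muscle genes. Among the 10 pericyte and smooth muscle markers 3 were higher and 4 lower, with the pericyte genes Kcnj8 and Abcc9 among the higher and Acta2, Myh11 and Cnn1 among the lower. The part of mural cells in these values was not tested.

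In the remaining lists 4 of 17, 3 of 12 and 1 of 13 genes were called. Over all genes 14.4% were called, and 20.8% of those with a mean of at least 5 CPM. Of 17 other PAK, LIM kinase and cofilin regulators 2 were higher and 2 lower, with Twf2 (log2 fold change -0.32) and Pak6 (-0.80, at 2.79 ± 0.131 CPM in mutant and 4.86 ± 0.382 CPM in control libraries) having the smallest adjusted p. Of 12 other formins 1 was higher, Fhod1 (0.35 ± 0.048, adjusted p = 0.00254), and 2 lower, of which Grid2ip was at 1.502 ± 0.0998 CPM in mutant and 2.395 ± 0.2305 CPM in control libraries and was called under 7 of 14 alternatives. Of 13 other polarity genes 1 was called and was lower, namely Llgl1, a partner and antagonist of the Par complex (-0.23 ± 0.038, adjusted p = 0.00566).

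**Figure D5:**
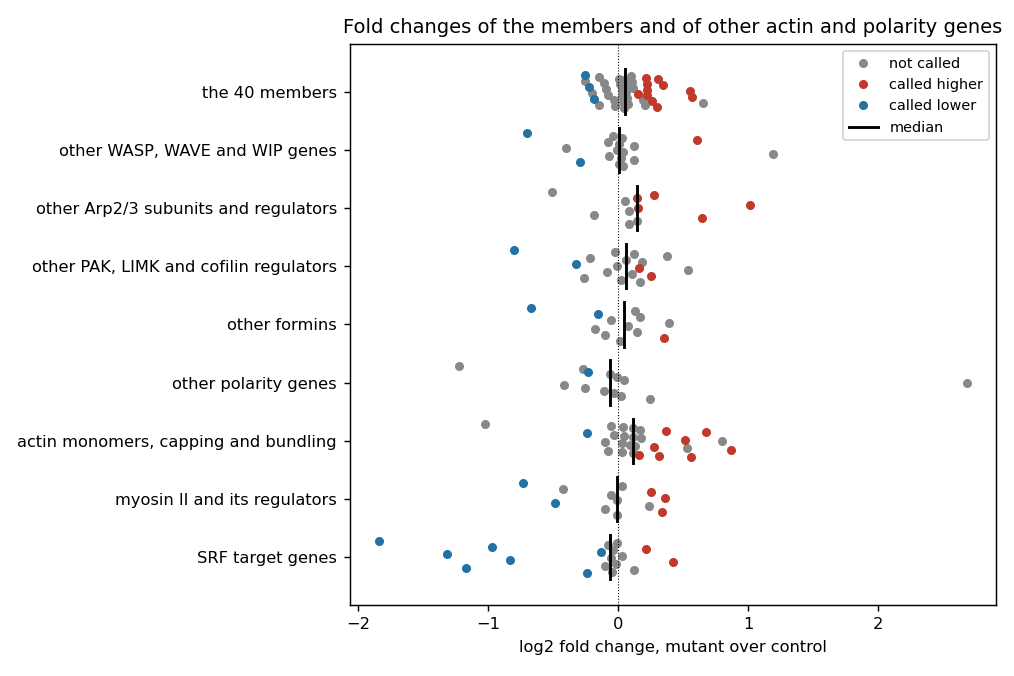
Log2 fold change (mutant over control, horizontal axis) of each gene in the 40 members and in 8 lists of other actin and polarity genes, 1 point a gene, with black bars at the medians. Red points are called higher, blue called lower and grey not called. List medians range from 0.15 for other Arp2/3 subunits and regulators to -0.07 for the SRF list, which includes Srf and its cofactors.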

How the data were processed

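The submitters' processing notes list StringTie 1.3.4, HISAT2, edgeR, cutadapt 1.10 and FastQC 0.10.1 and the build GRCm39, without roles or settings. The authors deposited estimated counts for each gene, whole and without normalization, and a quality table with, per the file headers, the count of valid reads per library, 50226902 to 53986268. Totals were 1.51 to 1.53 times the valid reads, and low counts pile up at 4 (1118 to 1190 genes a library, against 316 to 365 at 3), so precision follows read pairs, not counts. All 55450 identifiers matched GENCODE M21 (GRCm38), used for symbols, coordinates and exon lengths (union of all annotated exons). Raw counts had been assumed. These are estimates on a larger scale than read pairs, already whole, and the same test was used.

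Genes were filtered with filterByExpr, scaled by TMM and tested with edgeR 4.0.16 (R 4.3.3; quasi-likelihood, robust, group only), and p-values were adjusted over 19549 genes. SE is the log2 fold change over the square root of F, and 95% intervals use the fit's degrees of freedom. Alternatives were RLE or library size scaling, no filter, a filter of 1 CPM in 3 libraries, DESeq2 1.42.0, limma-voom 3.58.1, counts divided by 4, a replicate block and each library left out. The code was tested on simulated data. Libraries of a group differed by 1.81 to 2.62 times sampling noise (median chi-square over expectation) and were kept separate.

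The members and lists were chosen with earlier results of these data known. Values per library are given for called members, those called under an alternative only, and the most abundant of each role. Those of Pak4, Baiap2, Actr3 and Limk1 were added after their values were seen. From each other list the 2 genes with the smallest adjusted p are named, besides Cdc42, Actb and Actg1. Pard6g, Arpc5l, Actr3b, Coro1b and Coro2b were added after their values were seen. Of the 9 other lists 1 is counted in the totals and is not reported here.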

Additional observations from a re-analysis of the deposited data

How the results depend on the processing

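The count of higher members was 11 with all libraries and 9 to 11 with 1 library left out, and that of lower members was 3 and 1 to 3, with 1 when mutant library 2 or control library 1 or 2 was left out. With the replicate block, 10 members were higher and 1 lower, since Rock2, Pard3 and Prkci had adjusted p-values of 0.0685, 0.0637 and 0.0766. The numbers were not taken as pairs, since deviations of same-numbered libraries correlated by -0.02, 0.01 and 0.03. The scalings, the filters, DESeq2, limma-voom and counts divided by 4 left both counts as they were. Over all genes, 1477 were higher and 1335 lower, against 1106 and 953 with the block and 1100 to 1270 and 807 to 1125 with 1 library left out (lower: 865 when mutant library 2 was left out, and 807 and 861 when control library 1 or 2 was). In the other pathway lists 27 were higher and 19 lower, against 20 to 24 and 10 to 16 with 1 library left out (lower: 10 without control library 1 or mutant library 2, and 12 without control library 2). The cause was not tested.

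Among members that were not called, the sign of the log2 fold change turned with 1 library left out. It ranged from -0.25 to 0.19 for Pak4, -0.0401 to 0.12 for Was, -0.0035 to 0.0559 for Wasl, -0.0687 to 0.0175 for Wasf3, -0.0886 to 0.12 for Abi1, -0.0242 to 0.12 for Pard6a and -0.46 to 0.13 for Pard6b. For Arpc1a it ran from -0.0213 to 0.0346, for Arpc1b from -0.0073 to 0.14, for Arpc5 from -0.0298 to 0.27, for Actr3 from -0.0662 to 0.20, for Cfl2 from -0.10 to 0.0316, for Limk1 from -0.26 to 0.10 and for Ssh1 from -0.0502 to 0.0747.

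Without length scaling, the shares were, in mutant and control libraries, 71.8% and 70.9% for Arpc1b, 97.1% and 96.7% for Cfl1, 92.7% and 92.6% for Wasf2, 82.7% and 79.2% for Pak2, 72.0% and 63.8% for Ssh2, 66.5% and 64.9% for Rock2, 64.7% and 58.3% for Vasp, 22.0% and 26.9% for Evl, 94.0% and 95.3% for Prkci, 96.7% and 96.2% for Iqgap1, and 78.0% and 72.55% for Limk2. These moved because the exon lengths of the genes differ. Pard6b and Prkcz were counted at the lowest depth among the members.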
